A study of Mus musculus with 15 samples.

Results

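The 9 G protein gamma subunit genes Gng2, Gng3, Gng4, Gng5, Gng7, Gng8, Gng10, Gng11 and Gng12 were followed across 15 RNA-seq libraries of adult neural stem cells (aNSCs), out of 53801 genes in the count table. The genes were taken by symbol. Gng3 and Gng4 were chosen by measured expression values, taken here to be those that set Fl/Fl against Fl/+ cultures under 4-OHT. The study lists both genes among Sp1 targets that changed after Trrap deletion in brain tissue. For the comparisons that hold the Trrap-deleted cultures, the values of all members are therefore a description with no p. The same holds for Gng3 and Gng4 in the third comparison, which uses the same Fl/+ 4-OHT libraries. The number of members under the threshold (an adjusted p of 0.05) is printed there beside the share of all genes, and nothing is read from it. 3 further gamma genes (Gng13, Gngt1 and Gngt2) are given for completeness.

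The aNSCs were taken from the subventricular zone, grown in suspension and derived from C57BL6/J-129sv mice that were 2 months old. All cultures carried the Rosa26-CreERT2 transgene, whose recombinase is active in every cell type once 4-hydroxytamoxifen (4-OHT) is given. The 5 Fl/+ untreated cultures had 1 floxed Trrap allele and no 4-OHT. The 5 Fl/+ 4-OHT cultures came from the same 5 mice (19, 24, 26, 35 and 36), and their floxed allele was also open to recombination. The 5 Fl/Fl 4-OHT cultures (mice 27, 28, 29, 37 and 39) had both alleles floxed. The labels give 5 days of treatment, the methods a shorter one followed by fresh medium, and each group holds 3 cultures labelled male and 2 labelled female. The p-values measure the spread between these cultures. Trrap is an adaptor of histone acetyltransferase complexes.

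A heterotrimeric G protein consists of an alpha subunit that binds guanine nucleotides and a beta-gamma dimer that stays together. When a receptor activates the alpha subunit, the freed dimer acts on its own effectors, among them phospholipases, adenylyl cyclases, potassium channels and a phosphoinositide 3-kinase. The gamma subunit carries a lipid anchor at its end that holds the dimer at the membrane. Gamma subunits fall into subfamilies: Gng2, Gng3, Gng4 and Gng8 form one with many members in neurons, Gng7 and Gng12 another, Gng5 and Gng10 a further one, and Gng11 groups with the photoreceptor genes Gngt1 and Gngt2.

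The ends of the coding sequences show what the members share and where they part. The last 30 coding bases of the principal transcript of each gene (GENCODE M21, GRCm38) are given 5′ to 3′, with capitals for the last 4 codons, which encode the signal for the lipid anchor.
Gng2: cgggagaagaagttcttcTGCGCCATCCTT
Gng3: cgggagaagaagttcttcTGTGCGCTCCTC
Gng4: cgggagaagaagttcttcTGCACCATCCTC
Gng8: cgcgacaagcgactctttTGCACCCTGCTC
Gng7: ttcaaagacaaaaagcctTGCATAATTCTC
Gng12: ttcaaggataagaagaccTGCATCATCTTA
Gng5: ttcagaccccagaaagtcTGCTCCTTTTTG
Gng10: ttccgggagcccaggtccTGTGCTCTACTT
Gng11: ttcaaagaaaagggcagcTGTGTCATTTCA
A cysteine codon, the site of the anchor, opened the signal in 9 of 9 genes. The last codon was one for leucine in 8 genes and for serine in Gng11, the difference that sets a geranylgeranyl anchor apart from a farnesyl anchor. Gng2, Gng3 and Gng4 had the same 18 bases before the signal. Over their whole coding sequences Gng2 and Gng4 were 75.4% identical, Gng2 and Gng12 of another subfamily 73.7%, Gng3 and Gng4 72.2% and Gng2 and Gng3 70.8%. The lowest identity was that of Gng3 and Gng11, at 53.0%.

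The gene models bear on how each gene was counted. Gng3 (ENSMUSG00000071658, GRCm38 chromosome 19, 8836933 to 8839194, minus strand) shares 398 exonic bases with Bscl2 on the opposite strand, and the reads were counted by strand. Gng4 (ENSMUSG00000021303, chromosome 13, 13784059 to 13827896, plus strand) and Gng2 (ENSMUSG00000043004, chromosome 14, 19872559 to 19977627, minus strand) share no exonic bases with another gene of their own strand, although Gng2 shares 897 with the noncoding gene Gm48283 on the opposite strand. In the transcripts of Gng5, 5.76% of the stretches of 51 bases, the read length, recur in other annotated genes such as Gng5-ps, and a read from them cannot be placed uniquely. Gng10 (chromosome 4, 59035088 to 59041903, plus strand) shares 946 of its 1314 exonic bases with the overlapping gene Gm20503 of the same strand, which was at 0 counts in 15 of 15 libraries. Reads from shared exons are by default given to neither gene, so the Gng10 counts cover at most the other 368 bases and its level is uncertain.

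The libraries held 25720034 to 32187097 assigned counts. Values are CPM, counts scaled by the TMM-adjusted total of each library, and levels of different genes are set side by side only per kilobase (kb) of exon. Neural stem cell markers summed to 5980 to 10500 CPM per library, and 0 of 10 had at most 3 counts throughout a group, while 5 of 8 microglial markers had at most 3 counts in every library. The library labelled Fl/Fl 39 is labelled female but had 1556 counts of the Y-linked gene Ddx3y and 9 of Xist. The cultures of mouse 36, labelled male, had 1295 (untreated) and 1500 (4-OHT) counts of Ddx3y together with 160 and 2117 of Xist. The main results are also given without them. Trrap was at 190 ± 14.3 CPM in Fl/+ untreated, 164 ± 26.4 CPM in Fl/+ 4-OHT and 104 ± 24.2 CPM in Fl/Fl 4-OHT cultures (mean ± SD, n = 5 each). It was lower in the Fl/Fl than in the Fl/+ cultures given 4-OHT, with a difference of -0.64 on the log2 scale (SE 0.16), which passed edgeR's quasi-likelihood test (adjusted p = 0.0115, and 0.000714 to 0.0301 over the alternatives). The Fl/Fl culture of mouse 29 had 142 CPM of Trrap, which lay inside the 138 to 204 CPM of the Fl/+ 4-OHT cultures, and the other 4 Fl/Fl cultures had 82.8 to 115 CPM. The counts sum all exons of Trrap, deleted or not.

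Gng12 mRNA was the most abundant gamma message in aNSCs of each group. Per kb of exon it stood at 55.2 ± 3.26 CPM in Fl/+ untreated, 58.2 ± 3.75 in Fl/+ 4-OHT and 59.3 ± 3.41 in Fl/Fl 4-OHT cultures (n = 5 each), with no overlap with the next gene. It made up 46.2% to 62.7% of the summed level of the 9 genes in a library. Gng5, Gng11, Gng2 and Gng7 followed in untreated cultures at 15.4 ± 3.93, 12.6 ± 4.46, 7.78 ± 3.35 and 6.76 ± 1.53 CPM per kb. Neighbours in this order overlapped, so the order of neighbouring genes was not resolved beyond the spread between cultures. Gng5, at 10.8 to 20.6 CPM per kb, lay above Gng7, at 5.51 to 9.42, without overlap. Gng3 came next, at 3.38 ± 2.49 CPM per kb, and overlapped both Gng7 and, narrowly, Gng8. Gng8, known from olfactory and vomeronasal neurons, Gng4 and Gng10 lay lowest, at 0.341 ± 0.239, 0.267 ± 0.15 and 0.224 ± 0.0828 CPM per kb, with overlapping ranges. Over the unshared 368 bases alone, Gng10 was at 0.801 ± 0.296 CPM per kb.

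Below Gng12 the order of the means differed between the groups. In Fl/+ 4-OHT cultures Gng2 took rank 2 at 16.7 ± 2.71 CPM per kb and Gng3 rank 5 at 9.89 ± 6.24 CPM per kb. In Fl/Fl 4-OHT cultures Gng11 took rank 2 at 13.4 ± 2.23, Gng2 rank 5 at 5.77 ± 1.39 and Gng3 rank 6 at 3.85 ± 1.66 CPM per kb. Neighbours overlapped again, with the exception of the steps below Gng12, below Gng7 in Fl/+ 4-OHT and below Gng4 in Fl/Fl 4-OHT cultures. In the last of these, Gng4 stood at 1.83 ± 1.46 CPM per kb and did not overlap Gng8 at 0.199 ± 0.0978. The summed level of the 9 genes was 95.1 to 112 CPM per kb in Fl/+ untreated, 105 to 129 in Fl/+ 4-OHT and 93.7 to 115 in Fl/Fl 4-OHT cultures. Of the genes outside the list, Gng13 (a subunit of taste and olfactory cells) had 0 to 13 counts per library, the cone gene Gngt2 0 to 3, and the rod gene Gngt1 0 in 15 of 15 libraries.

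**Figure D1:**
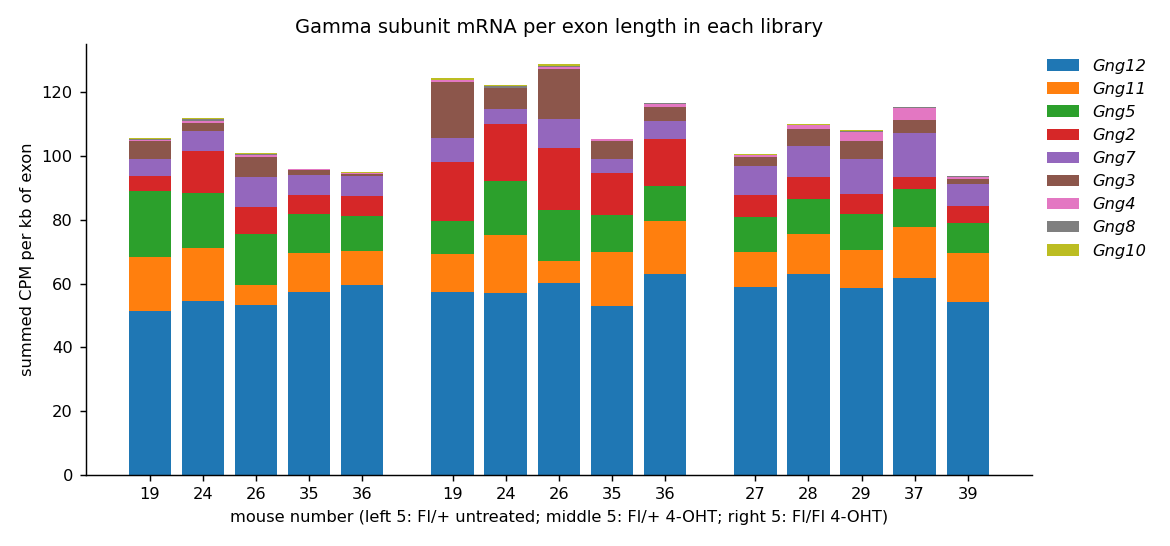
Stacked bars give the CPM per kb of exon of each gamma subunit gene (y axis) in each of the 15 libraries, named by mouse number (x axis) and arranged by group from left to right. Gng12 forms the largest block in every bar, at 46.2% to 62.7% of the total, and the share of Gng2 is 12.3% to 15.2% in Fl/+ 4-OHT against 3.15% to 11.8% in the other libraries.

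The comparison of Fl/+ cultures with and without 4-OHT asked what the treatment, including recombination of the single floxed allele, did in cells that keep an intact Trrap allele. It shares the Fl/+ 4-OHT libraries with the comparison of genotypes, so the choice of Gng3 and Gng4 was not independent of it and their values are a description. Gng2 rose, Gng3 was higher after treatment in each mouse, and Gng5, Gng7, Gng8, Gng11 and Gng12 did not pass the test. Of the 9 members, 8 passed the filter on low counts and 1 was called (Gng2), whereas 13.8% of all 14821 genes tested were called (7.34% higher and 6.45% lower). With scaling by library size alone, the calls over all genes were 1396 higher and 712 lower, against 1088 and 956 with TMM.

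Gng2, a widely used gamma partner of Gnb1 in neural and other cells, had 558, 1667, 1063, 702 and 765 counts in the untreated cultures of mice 19, 24, 26, 35 and 36. After 4-OHT the same mice gave 2384, 2471, 2173, 1640 and 1854 counts. In CPM these were 20.2, 58.1, 37.2, 27.0 and 28.2 before and 80.6, 78.2, 85.8, 56.9 and 65.4 after treatment. The ranges touched only through the untreated culture of mouse 24, which was above the treated culture of mouse 35. Gng2 thus rose by 1.11 on the log2 scale (SE 0.248, n = 5 per group), with an adjusted p of 0.0144 in edgeR that ranged from 0.000269 to 0.0431 over the alternatives and was highest without the cultures of mouse 36. With the mouse number as a block it rose by 1.18 (SE 0.185) with an edgeR adjusted p of 0.00309, in a fit that called 25.7% of all genes. Gng2 was higher after 4-OHT in 5 of 5 mice, by 1.34 to 3.92-fold, with an exact two-sided sign-flip p of 0.0625, the smallest that 5 pairs can give.

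Gng3, which is best known from mature neurons, had 257, 124, 297, 68 and 31 counts before and 854, 333, 653, 267 and 193 counts after 4-OHT in the same order of mice. Its levels were 9.3, 4.32, 10.4, 2.62 and 1.14 CPM without and 28.9, 10.5, 25.8, 9.26 and 6.81 CPM with 4-OHT. The groups overlapped because mice 35 and 36 were low and mice 19 and 26 high in both. Without pairing, the difference was 1.55 on the log2 scale (SE 0.588), and with the mouse number as a block it was 1.68 (SE 0.188). Without the cultures of mouse 36 and without pairing it was 1.48. Each of the 5 mice gave a higher value after 4-OHT, by 3.0, 2.29, 2.41, 3.13 and 4.45-fold. Within the mice numbered below 30 the mean log2 difference was 1.35 (n = 3 per group) and within those above 30 it was 1.9 (n = 2 per group).

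Gng4, a close relative of Gng2 and Gng3 that is also known from the nervous system, had 24, 34, 45, 11 and 11 counts before and 57, 23, 49, 49 and 112 counts after 4-OHT. In CPM it was at 0.868, 1.19, 1.57, 0.423 and 0.405 without and 1.93, 0.728, 1.94, 1.7 and 3.95 with treatment. Mouse 24 went the other way from the remaining 4 mice, and mouse 36 gave the highest treated value. Its log2 fold change was 1.19 (SE 0.475). Without the cultures of mouse 36 it was 0.62, within the mice numbered below 30 the log2 difference was 0.2, and above 30 it was 1.77.

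The other paralogs gave small differences that did not pass the test. Gng12 had a log2 fold change of 0.08 (SE 0.0767) and Gng5 of -0.22 (SE 0.199), with adjusted p of 0.543 and 0.498 in edgeR. Gng7, which in the striatum works with the alpha subunit of the olfactory type, had -0.10 (SE 0.207) and Gng11 0.16 (SE 0.308). Gng8 had 4 to 32 counts per untreated library and a log2 fold change of -0.25 (SE 0.499). For Gng10, with 3 to 16 counts, no fit was made, and its values over the Fl/+ cultures were 0.104 to 0.632 CPM. In Gng5 the culture of mouse 19 went from 57.1 to 28.9 CPM, while the other 4 mice changed by 0.958 to 1.0-fold.

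Fl/Fl cultures were set against Fl/+ cultures that had also received 4-OHT, to ask what the loss of Trrap changes. Here Gng2 and Gng3 were lower and Gng4 and Gng7 higher in Fl/Fl cultures, while Gng5, Gng11 and Gng12 had log2 fold changes between -0.26 and 0.04. The values are a description. Of the 9 members, 7 passed the filter and 3 were under the threshold (Gng2 and Gng3 lower, Gng7 higher), beside 31.7% of 15036 genes tested (16.8% higher and 15.0% lower). The groups did not overlap for 1 of 9 members, Gng2, beside 22.6% of all genes tested. Without the libraries of mice 36 and 39 the log2 fold changes of Gng2, Gng3 and Gng7 were -1.53, -1.37 and 0.77.

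Gng2 had 994, 869, 841, 413 and 653 counts in the Fl/Fl cultures of mice 27, 28, 29, 37 and 39, or 30.9, 29.5, 27.6, 16.0 and 22.7 CPM. All lay below the lowest Fl/+ 4-OHT culture, at 56.9 CPM. Gng2 was 2.86-fold lower (log2 fold change -1.52, SE 0.18), and the log2 value ranged from -1.61 to -1.41 over the alternatives.

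Gng3 had 144, 255, 281, 168 and 80 counts in the Fl/Fl cultures, or 4.47, 8.67, 9.21, 6.5 and 2.78 CPM. These values overlapped the 6.81 to 28.9 CPM of the Fl/+ 4-OHT cultures through mouse 36 of the latter, while mouse 35, at 9.26 CPM, was just above the highest Fl/Fl culture. Gng3 was 2.54-fold lower on average (log2 fold change -1.35, SE 0.45). The log2 value was nearest to 0, at -1.05, without the Fl/+ 4-OHT culture of mouse 19, which had the highest value. Within the mice numbered below 30 the difference was -1.42 (n = 3 per group) and within those above 30 it was -0.82 (n = 2 per group). For Bscl2, which overlaps Gng3 on the other strand, the log2 difference was 0.28 with SE 0.101 and an edgeR adjusted p of 0.0565.

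Gng4 had 56, 128, 293, 330 and 61 counts in the Fl/Fl cultures, or 1.74, 4.35, 9.6, 12.8 and 2.12 CPM. The cultures of mice 29 and 37 were high, and those of mice 27 and 39 lay inside the Fl/+ 4-OHT range of 0.728 to 3.95 CPM. Gng4 was 3.02-fold higher on average (log2 fold change 1.59, SE 0.583). It was 1.13 without the Fl/Fl culture of mouse 37 and 2.18 without the libraries of mice 36 and 39.

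Gng7 was at 34.3, 37.1, 41.5, 53.0 and 26.1 CPM in the Fl/Fl cultures, against 17.4 to 33.8 CPM in the Fl/+ 4-OHT cultures. The Fl/Fl culture of mouse 39 lay inside the control range and the others above it. Gng7 was 1.63-fold higher (log2 fold change 0.70, SE 0.219). For the remaining paralogs it was 0.04 (SE 0.0692) in Gng12, -0.26 (SE 0.149) in Gng5 and -0.06 (SE 0.236) in Gng11. Gng8 at 0.303 ± 0.149 CPM against 0.438 ± 0.214, and Gng10 at 0.199 ± 0.121 CPM against 0.361 ± 0.214, were below the filter (n = 5 each).

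**Figure D2:**
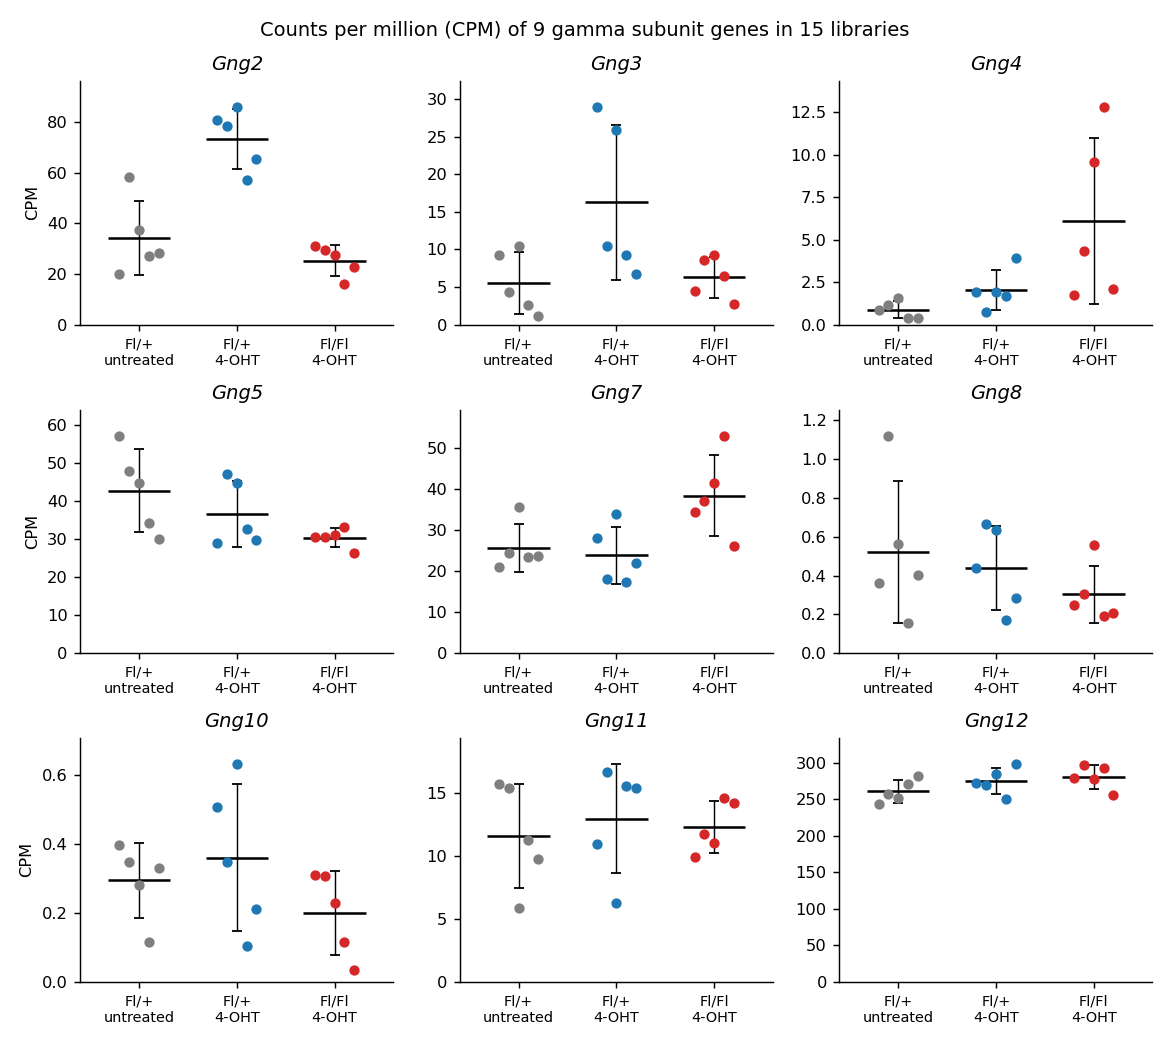
CPM of each of the 9 gamma subunit genes (y axis, from 0) in the 3 groups (x axis). Points are the 5 libraries of a group in order of mouse number, lines the mean and bars the SD. Gng2 in Fl/Fl 4-OHT cultures lies between 16.0 and 30.9 CPM, below all Fl/+ 4-OHT cultures, and Gng4 spreads from 1.74 to 12.8 CPM.

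Against the untreated Fl/+ cultures, which differ in both treatment and genotype, Gng4 was the member with the largest difference. The 3 groups share libraries between comparisons, so these values are not independent of those above. Gng4 in Fl/Fl 4-OHT cultures lay above the untreated range of 0.405 to 1.57 CPM in 5 of 5 cultures, with a log2 fold change of 2.78 (SE 0.617). It was the 1 member of 9 whose groups did not overlap, beside 23.1% of all genes. Of the 7 members past the filter, 3 were under the threshold (Gng4 and Gng7 higher, Gng5 lower), beside 30.7% of 15032 genes. Gng2 and Gng3 had log2 fold changes of -0.42 (SE 0.272) and 0.20 (SE 0.535), and those of Gng7 and Gng5 were 0.60 (SE 0.195) and -0.48 (SE 0.162). For Gng3 the mean log2 difference was -0.07 within the mice numbered below 30 and 1.08 within those above 30. Without the libraries of mice 36 and 39 the log2 fold changes of Gng2, Gng3 and Gng4 were -0.44, 0.13 and 2.81. For Gng2 and Gng3 the Fl/+ 4-OHT group held the highest mean of the 3, at 73.4 ± 11.9 and 16.3 ± 10.3 CPM. For Gng4 the means were 0.891 ± 0.502, 2.05 ± 1.17 and 6.11 ± 4.86 CPM in Fl/+ untreated, Fl/+ 4-OHT and Fl/Fl 4-OHT cultures.

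**Figure D3:**
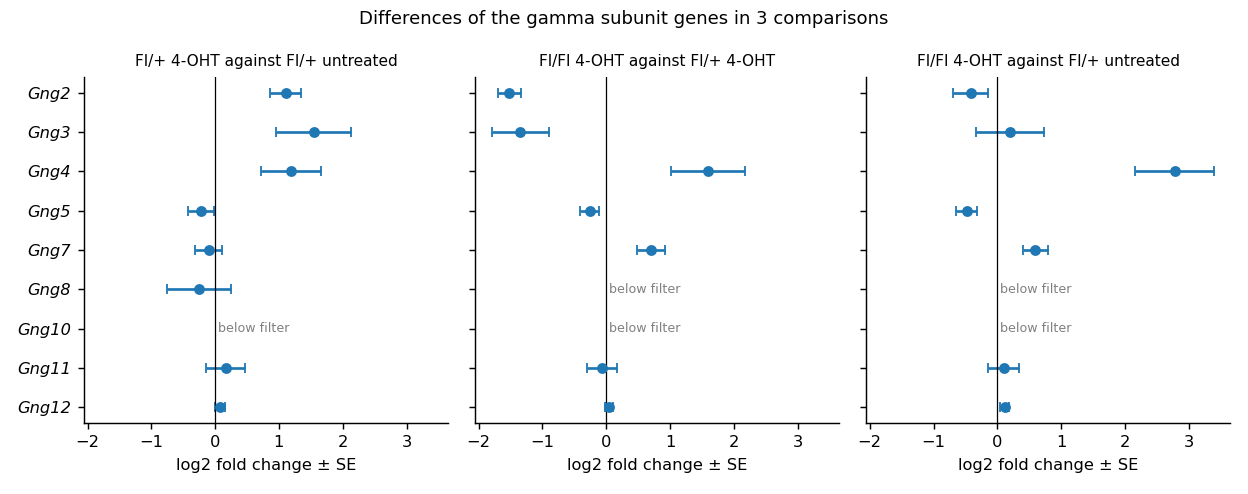
Log2 fold changes (x axis, points) with their SE (bars) of the gamma subunit genes (y axis) in the 3 comparisons, from edgeR. Gng10 and, in 2 panels, Gng8 were below the filter and have no point. Gng2 and Gng3 are above 0 in the left panel and below 0 in the middle panel, Gng4 is above 0 in all 3, and Gng12 is within 0.12 of 0 throughout.

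The levels of marker genes of other cell types moved with some members, and their part in the results was not tested. In these bulk cultures fewer cells of a type and less RNA per cell cannot be told apart. Of 14 neuron markers tested between the treated groups 2 were called lower (Tubb3 and Dcx) and 2 higher (Syp and Slc17a7), beside 15.0% and 16.8% of all genes. The summed level of 15 neuron markers was 966 to 1170 CPM in Fl/+ 4-OHT and 755 to 919 CPM in Fl/Fl 4-OHT cultures. Over the 15 libraries log2 Gng2 followed this sum with r = 0.51, Gng3 with 0.11 and Gng4 with -0.7 (a description over points that share the same libraries). The 10 oligodendrocyte markers summed to 3370 to 4660 CPM in Fl/+ 4-OHT and 3590 to 5400 CPM in Fl/Fl 4-OHT cultures. Between these groups 0 of 10 were called, beside 31.7% of all genes. After 4-OHT in Fl/+ cultures 6 of 10 were called higher, beside 7.34% of all genes, among them Mbp at 118 ± 95.5 CPM against 16.3 ± 16.7. Untreated cultures had at most 3 counts of Mog. Under 4-OHT 4 of 8 astrocyte markers were called lower and 1 higher, beside 6.45% and 7.34% of all genes. After Trrap deletion 3 of 10 neural stem cell markers were lower (Sox2, Fabp7 and Prom1), beside 15.0% of all genes. Against untreated cultures 6 of 14 neuron markers were lower and 1 higher (Slc17a7) in Fl/Fl 4-OHT cultures. Of the 10 oligodendrocyte markers 6 were higher there and 1 lower (Olig1). In that comparison 30.7% of all genes were called, 2357 of 15032 higher and 2263 lower. The 8 microglial markers summed to 2.5 to 3.95 and 4.16 to 7.85 CPM in the 2 treated groups, and 5 of them had at most 3 counts in every library. Over the 15 libraries Gng4 followed the microglial sum with r = 0.81, and Gng7 the oligodendrocyte sum with r = 0.69.

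The genes whose log2 levels followed Gng3 and Gng4 most closely over the 15 libraries were different ones. They were the highest of 13332 genes, and all points share libraries, depth and scaling, so the correlations are a description. For Gng3 they were Nxph4, a secreted neurexin ligand (r = 0.893), Nacad (0.885), Atcay, the neuronal caytaxin gene (0.881), Rac3, a small GTPase (0.878), and Adgre5, an adhesion G protein-coupled receptor (0.875). Nxph4 was at 0.876 ± 0.609, 2.67 ± 0.942 and 1.52 ± 0.49 CPM in Fl/+ untreated, Fl/+ 4-OHT and Fl/Fl 4-OHT cultures. For Gng4 they included Mroh3 (r = 0.926), Lrtm2 (0.923), Sema4d, a semaphorin (0.914), and Myrf, the myelin regulatory factor (0.912). Mroh3 was at 0.706 ± 0.125, 1.63 ± 1.01 and 7.76 ± 7.57 CPM in the same order of groups. Among the members themselves the closest pair was Gng4 and Gng7 (r = 0.72), and Gng2 and Gng3 had r = 0.56.

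Because the study lists Gng3 and Gng4 among Sp1 targets, the promoters were searched for GGGCGG, the core of the motif that Sp1 binds, on both strands. In the 250 bases before the start (RefSeq, GRCm38.p6) the letters occurred in 32.7% of 32851 promoters of all genes and in 44.1% of those of protein coding genes. They were found 0 times before Gng3 and 0 times before Gng2. For Gng4 the window before 1 listed start (13784057 to 13784306) held 2 and that before the other start 0. Gng5 held 3, Gng8 1 and Gng10 1, while the starts of Gng7 held 5 and 0 and those of Gng12 2 and 0. Gng11 had no entry in the promoter table. The stretches next to the starts of Gng3 and Gng4 that hold no annotated exon are shown 5′ to 3′ on the strand of the gene, chr19:8839247-8839327 (minus strand) and chr13:13784108-13784306 (plus strand), with the motif in capitals.
Gng3: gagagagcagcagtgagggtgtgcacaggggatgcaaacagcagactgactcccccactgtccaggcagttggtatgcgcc
Gng4: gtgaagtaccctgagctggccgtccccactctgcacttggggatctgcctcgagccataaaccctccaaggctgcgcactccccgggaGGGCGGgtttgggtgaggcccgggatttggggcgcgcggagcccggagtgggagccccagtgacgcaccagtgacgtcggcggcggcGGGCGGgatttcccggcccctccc
The matches before Gng4 began 111 and 24 bases from the start.

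The partners of the gamma subunits, 70 genes listed by textbook membership, were tested in the same fits. After Trrap deletion 59 passed the filter, and under 4-OHT also 59. The sets differ in that Kcnj5 passed only after Trrap deletion and Gpsm3 only under 4-OHT. After Trrap deletion 20 of the 59 were called (33.9%, near the 31.7% of all genes), 5 higher and 15 lower. Scaling by library size alone gave 7 higher and 13 lower. Under 4-OHT in Fl/+ cultures 13 of 59 were called (22%, beside 13.8% of all genes), 8 higher and 5 lower, or 12 and 4 with scaling by library size alone. With the mouse as a block 20 were called, beside 25.7% of all genes. Without the libraries of mice 36 and 39 the counts were 15 and 9, where 3513 of 15142 and 1614 of 14918 genes were called, and of the genes named below Gna14, Gnaz, Gnaq and Pik3r5 were then not called after Trrap deletion, nor Adcy2, Pik3cg and Rgs2 under 4-OHT. With each of 10 libraries left out in turn, Gna14 was called 5 times, Gnaq 4, Gnaz 3 and Pik3r5 2 times after Trrap deletion. Under 4-OHT Pik3cg was called 4, Adcy2 3 and Gnai1 2 times. With no filter on low counts Gnaq, Gnaz and Pik3r5 were not called after Trrap deletion, nor Gnai1 under 4-OHT. Pik3r5 was also not called with labelled sex as a covariate, Gnaq with scaling by library size alone, and neither of them with a dispersion shared by all 15 libraries. The 4-OHT calls of Pik3cg, Pik3r5, Gna14 and Rgs8 were lost where every library had to hold at least 10 counts.

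The beta subunits, which pair directly with gamma, differed after Trrap deletion in 3 of the 4 genes tested, beside 31.7% of all genes. Gnb1 had 697 ± 36.1 CPM in the Fl/+ 4-OHT group but 439 ± 22.8 CPM in the Fl/Fl group, with no overlap (log2 difference -0.65, SE 0.0682), and edgeR gave an adjusted p of 0.000127. Gnb4 was at 10 ± 2.51 against 20.4 ± 4.26 CPM, a log2 difference of -1.01 with SE 0.196 and an adjusted p of 0.00331 in edgeR. Gnb5, which pairs with regulators of the RGS7 type in place of gamma subunits, was higher, at 65.2 ± 3.61 against 42.4 ± 3.35 CPM, a log2 difference of 0.64 with SE 0.071 and an adjusted p of 0.00018 in edgeR. Gnb2 at 438 ± 25.7 against 501 ± 83.6 CPM did not pass the test (edgeR adjusted p = 0.235), and Gnb3 was below the filter. Under 4-OHT in Fl/+ cultures 0 of the 4 beta genes were called by edgeR, beside 13.8% of all genes. Their log2 fold changes lay between -0.20 (Gnb2) and 0.10 (Gnb1).

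Of 13 alpha subunit genes tested, 4 were lower and 2 higher in Fl/Fl than in Fl/+ 4-OHT cultures, beside 15.0% and 16.8% of all genes. The genes of the inhibitory class Gnai1 (24.5 ± 1.85 against 36.3 ± 4.6 CPM, adjusted p = 0.00194 in edgeR) and Gnai3 were lower, as were Gna13 (log2 fold change -0.38, adjusted p = 0.00229 in edgeR), and Gnaq. Gna14, a relative of Gnaq, was higher (3.91 ± 1.72 against 1.76 ± 0.798 CPM, adjusted p = 0.0372 in edgeR), and so was Gnaz. Gna14 also rose with 4-OHT in Fl/+ cultures, from 0.505 ± 0.222 to 1.76 ± 0.798 CPM (adjusted p = 0.0169 in edgeR). Gnai1 rose there from 25.4 ± 5.48 to 36.3 ± 4.6 CPM (adjusted p = 0.0415 in edgeR). The main stimulatory alpha gene Gnas was at 1740 ± 123 against 1870 ± 215 CPM after Trrap deletion and did not pass the test.

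**Figure D4:**
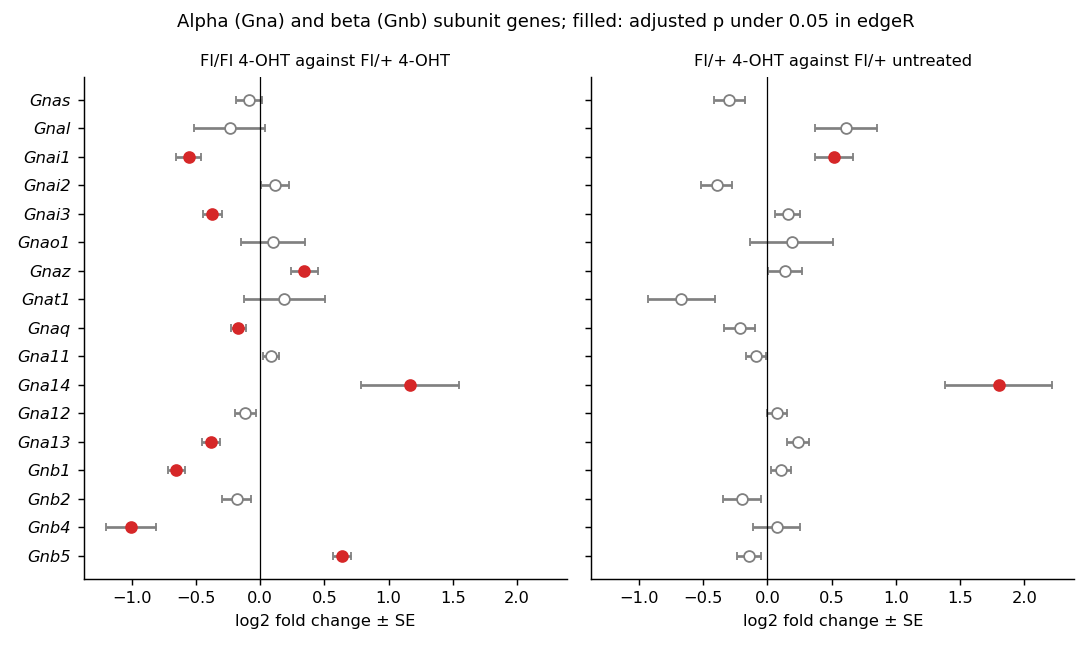
Log2 fold changes (x axis) with SE of the alpha and beta subunit genes that passed the filter (y axis), for Trrap deletion on the left and 4-OHT in Fl/+ cultures on the right. Filled points have an adjusted p under 0.05 in edgeR, and the beta genes Gnb1, Gnb4 and Gnb5 are filled on the left only. Whether the effects differ between the panels was not tested.

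The other lists held genes that process the gamma subunits, act with the dimer or regulate the signal. Of 6 processing genes, Icmt, the methyltransferase that caps the prenylated end, was higher after Trrap deletion (44.8 ± 2.99 against 36.5 ± 1.25 CPM, adjusted p = 0.00461 in edgeR), and Pdcl, a chaperone of beta-gamma assembly, was lower (52.1 ± 3.41 against 64.2 ± 2.4 CPM, adjusted p = 0.0053 in edgeR). The prenyltransferase genes Fnta, Fntb and Pggt1b were not called. Of 16 effectors tested 3 were lower and 1 higher, beside 15.0% and 16.8% of all genes: Plcb3, a phospholipase C, fell from 124 ± 12.6 to 70.0 ± 4.31 CPM (adjusted p = 0.00012 in edgeR), Adcy1, an adenylyl cyclase, from 29.6 ± 5.47 to 19.3 ± 3.74 CPM (adjusted p = 0.0148 in edgeR), and Pik3r5, a regulatory subunit of phosphoinositide 3-kinase gamma, was at 2.79 ± 1.15 against 1.59 ± 0.339 CPM (adjusted p = 0.0392 in edgeR). Of 20 regulators 5 were lower and 0 higher, beside 15.0% and 16.8% of all genes, and among them were Rgs7 (log2 fold change -0.53), Rgs12 (-0.49) and Rgs2 (-0.46).

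With 4-OHT in Fl/+ cultures 3 of the called regulators, which shorten alpha subunit signals, rose with no overlap between the groups. Rgs8 rose from 0.457 ± 0.341 to 7.9 ± 3.95 CPM (adjusted p = 0.00154 in edgeR), Rgs4 from 2.6 ± 1.08 to 13.4 ± 5.65 CPM (adjusted p = 0.00212 in edgeR) and Rgs16 from 7.75 ± 1.5 to 31.9 ± 9.45 CPM (adjusted p = 0.000518 in edgeR), and 12.0% of all genes tested had groups without overlap. Rgs19 was also higher without overlap, at 17.1 ± 1.1 against 13.5 ± 1.23 CPM, but was not called (adjusted p = 0.0523 in edgeR). Rgs2 was lower without overlap, at 9.28 ± 0.897 against 14.3 ± 2.85 CPM (adjusted p = 0.0195 in edgeR). In all 4 regulators were called higher and 2 lower of 21 tested, beside 7.34% and 6.45% of all genes. Of 15 effectors tested 3 were lower and 2 higher, beside 6.45% and 7.34% of all genes. The adenylyl cyclase gene Adcy8 fell from 46.2 ± 8.14 to 13.4 ± 4.22 CPM (adjusted p = 0.000883 in edgeR). Adcy2 fell from 54.2 ± 15.5 to 29.5 ± 9.14 CPM (adjusted p = 0.0367 in edgeR). Pik3cg fell from 3.37 ± 2.32 to 0.54 ± 0.486 CPM (adjusted p = 0.0342 in edgeR). Adcy6 rose from 55.0 ± 3.93 to 73.4 ± 5.82 CPM (adjusted p = 0.0072 in edgeR). Pik3r5 rose from 0.322 ± 0.146 to 1.59 ± 0.339 CPM (adjusted p = 0.00154 in edgeR).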

How the data were processed

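Poly(A) RNA of 15 cultures was sequenced from stranded libraries as single-end reads of 51 bases. The authors mapped the reads to GRCm38 with STAR 2.5.4b and counted unique reads per gene and strand with featureCounts 1.5.0, and base calls were converted with bcl2fastq 1.8.4 (per the labels and the study's methods). The deposited values are raw counts, not normalized, and no molecular identifiers are described. Labels and methods give different 4-OHT doses, so none is stated. Ensembl IDs were matched to GENCODE M21 (53706 of 53801). Alternatives were other normalizations, filters, tools and covariates, and leaving out libraries.

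Each comparison was fitted on its own 10 libraries with edgeR 4.0.16 (R 4.3.3): filterByExpr with a minimum count of 10, TMM, quasi-likelihood test, no covariates, Benjamini-Hochberg adjustment over all genes and calls under 0.05. SE denotes the standard error of a log2 fold change. The tests were checked on simulated counts. Log2 levels use CPM plus 0.5. Coding sequences were aligned end to end, and identity is given over all aligned columns.

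Both Fl/+ groups come from the same mice. Deviations from the group means over 15435 genes correlated with r of 0.156 to 0.626 in the 5 same-mouse pairs and -0.549 to 0.339 otherwise, so the mouse number was used as a block in an alternative. The members and the gene lists were chosen with earlier results of these data known. No p is given for Gng3 and Gng4 in any comparison. Named genes were the gamma genes, Trrap, up to 3 called genes per partner list and comparison with the largest log2 fold change and a mean of at least 1 CPM, and the 5 genes most correlated with Gng3 and with Gng4. For Gng4, 1 of these 5 is not reported here. Other genes (Gnai3, Gnaq, Gnaz, Gnas, Gnb2, Bscl2, Adcy6, Rgs19, Kcnj5, Gpsm3, Pik3r5 and Rgs2 under 4-OHT, and the markers) were named after their values were seen.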

Additional observations from a re-analysis of the deposited data

Results flagged for a closer look

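Each of the 9 gamma genes and Trrap was examined in 3 groups of 5 for a library far from the others, and 1 of these 30 sets of values held one, where chance gives about 1 in 20. Among the Fl/+ untreated cultures Gng7 was at 35.7 CPM in mouse 26, and the gap to the next value took 0.764 of the group's range, above the 95% critical value of 0.71. The culture of the same mouse after 4-OHT was also the highest of its group, at 33.8 CPM.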

How the results depend on the processing

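Over the alternatives 1 or 2 members were under the threshold with 4-OHT. There were 2 members under the threshold when the mouse entered as replicate block, and with a covariate for mouse numbers below or above 30, which was added after the data had been seen. Over all genes, 2044 were called, against 3809 with the block, 3170 with that covariate and 2984 with the Wald test of DESeq2 1.42.0. Without the Fl/+ 4-OHT library of mouse 19 or 35 they were 1271 and 1311. The block moved the partner genes called from 13 to 20, as did the Wald test (20), and leaving out single libraries gave 7 to 18, the lowest without the Fl/+ 4-OHT libraries of mice 19 (7) and 36 (8). After Trrap deletion leaving out single libraries gave 1 to 3 members under the threshold (a description), with 1 without the Fl/Fl library of mouse 28 or 37. The other alternatives gave 2 to 4. Gng3 was not among them with labelled sex as a covariate or with a shared dispersion. Gng4 was among them with the shared dispersion and with the Wald test, so which members were under the threshold depended on the setting. The partner genes called after Trrap deletion numbered 15 to 18 with single libraries left out. Against untreated cultures leaving them out gave 1 to 2 members, with 1 without the untreated library of mouse 19 or 24 or the Fl/Fl library of mouse 28, 29 or 37. Under 4-OHT, values not called changed sign for Gng7 (-0.25 to 0.04 with single libraries left out, 0.0004 without the Fl/+ 4-OHT library of mouse 35 and 0.0441 without the untreated library of mouse 26), Gng8 (-0.48 to 0.24) and Gng11 (-0.0052 to 0.35). Among the described values, so did Gng3 (-0.06) and Gng11 (-0.07) against untreated cultures, and Gng11 (0.04) and Gng12 (-0.004) after Trrap deletion. The cause was not tested. Over the log2 fold changes of members under 4-OHT and of Trrap, 211 of 217 alternative values kept their direction and side of the threshold. The 217 values include those of Gng3 and Gng4, which are a description, and of members that were not called, so nothing is read from the share. Gng10 had 1 to 16 counts per library and was not fitted.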
